A study of Mus musculus with 47 samples.

Results

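Pf4 and the chemokine system of the brain were followed as 10 genes of the 35486 in a table of read counts from mouse hippocampus. The genes were taken by name. They are Pf4, which encodes platelet factor 4; Ppbp, the precursor of the other abundant platelet chemokine; Cxcr3, the receptor reported for PF4; and Cxcl12, Cxcr4, Ackr3, Cx3cl1, Cxcl14, Ackr1 and Cxcl16, which are chemokines and receptors of brain cells and brain vessels.

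Chemokines are small secreted proteins that bind receptors of the G protein-coupled class and steer the movement of cells. Megakaryocytes load PF4 and the products of Ppbp into platelet granules, from which activated platelets release them, and some tissue macrophages also transcribe Pf4. In the brain CXCL12 acts through CXCR4 and is cleared by the scavenger ACKR3, while CX3CL1 made by neurons binds CX3CR1 on microglia.

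The hippocampus of 47 male C57BL/6J mice was sequenced after injection of vehicle (Veh) or mouse PF4 protein (PF4), with 13 Young Veh, 12 Young PF4, 12 Old Veh and 10 Old PF4 mice. Young mice were 3.75 to 5.26 months old and Old mice 17.4 to 20.23 months old by the sample labels. PF4 was given as protein in the periphery, so the counts show transcripts made in the tissue or in cells held in it, and not the injected protein. The comparisons ask whether PF4 or age changed the tissue's own chemokine transcripts.

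Total counts ran from 2242879 to 21112908 per library, and 8 libraries (1 Young Veh, 2 Young PF4, 4 Old Veh and 1 Old PF4) had under 5000000. Levels are given as CPM, counts per 1000000 reads of the library size after TMM scaling. The libraries fell into clusters by their choroid plexus transcripts, which mark the secretory tissue next to the hippocampus. The summed level of 10 choroid plexus markers was 1004 to 4259 CPM in 24 libraries (8 Young Veh, 8 Young PF4, 4 Old Veh and 4 Old PF4) and 12.0 to 452 CPM in the other 23 (5, 4, 8 and 6 in the same order). These are called rich and poor in choroid plexus transcripts here, a division made after the data were seen. The library numbers in the labels run in separate blocks for Old and Young mice, and within Old mice for Veh and PF4, while those of the Young groups are mixed. An effect of processing order, if the numbers reflect one, cannot be told apart from age or from PF4 in Old mice.

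The 6 ligands share the paired cysteines that name the chemokine classes, and the stretch of coding sequence around them is shown to place the ligands within the family. Each begins 12 codons before the first cysteine codon, both cysteine codons are in capitals, and the bases are those of GENCODE vM21 transcripts on GRCm38, joined across an intron.
Pf4: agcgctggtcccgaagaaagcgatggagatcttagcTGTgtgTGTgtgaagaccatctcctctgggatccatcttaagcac
Ppbp: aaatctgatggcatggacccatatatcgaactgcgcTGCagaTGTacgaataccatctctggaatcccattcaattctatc
Cxcl12: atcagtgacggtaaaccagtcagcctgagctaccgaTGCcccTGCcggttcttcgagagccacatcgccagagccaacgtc
Cxcl14: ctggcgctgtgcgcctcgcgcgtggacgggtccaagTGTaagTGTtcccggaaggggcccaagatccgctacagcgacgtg
Cxcl16: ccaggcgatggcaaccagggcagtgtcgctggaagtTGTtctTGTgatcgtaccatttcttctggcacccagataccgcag
Cx3cl1: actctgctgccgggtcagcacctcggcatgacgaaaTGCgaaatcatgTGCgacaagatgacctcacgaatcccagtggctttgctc
In Pf4, Ppbp, Cxcl12, Cxcl14 and Cxcl16 the cysteine codons were 3 bases apart, the CXC spacing, and in Cx3cl1 they were 9 bases apart. Codons for glutamate, leucine and arginine, the motif that marks neutrophil-attracting CXC chemokines, stood directly before the first cysteine in Ppbp and not in the other 5 ligands. The stretches lie at chr5:90772675-90772988 (+) for Pf4, chr5:90768720-90769129 (+) for Ppbp, chr6:117168707-117171552 (+) for Cxcl12, chr13:56295879-56296137 (-) for Cxcl14, chr11:70459091-70459381 (-) for Cxcl16 and chr8:94772322-94778101 (+) for Cx3cl1. The coding sequence was 105 codons long in Pf4, 113 in Ppbp, 119 in Cxcl12, 99 in Cxcl14, 246 in Cxcl16 and 395 in Cx3cl1. CXCL16 and CX3CL1 are membrane-bound ligands with a stalk.

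Levels differed widely between the 10 genes. Per kilobase of exon, Cx3cl1 was highest at 157 ± 18.0 CPM per kb (SD over the 47 libraries) and Cxcl14 followed at 43.6. Both stood apart from the rest in all 47 libraries. Cxcl12 had 7.88 CPM per kb and Ackr1 7.76, and Cxcl12 was the higher of the pair in 24 of 47 libraries, so their order was not resolved. Ackr1 shares exon bases with Cadm3, and how many of its reads belong to that gene was not tested, so its place in the order is uncertain. Ackr3 had 4.41 CPM per kb, above Pf4 in all 47 libraries. Pf4 had 0.920 CPM per kb and Cxcl16 0.645, with Pf4 higher in 29 of 47 libraries. At the bottom lay Cxcr4 at 0.212, Cxcr3 at 0.0204 and Ppbp at 0.0145 CPM per kb. Of the receptors of CXCL12, the scavenger Ackr3 was thus above the signalling receptor Cxcr4.

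**Figure D1:**
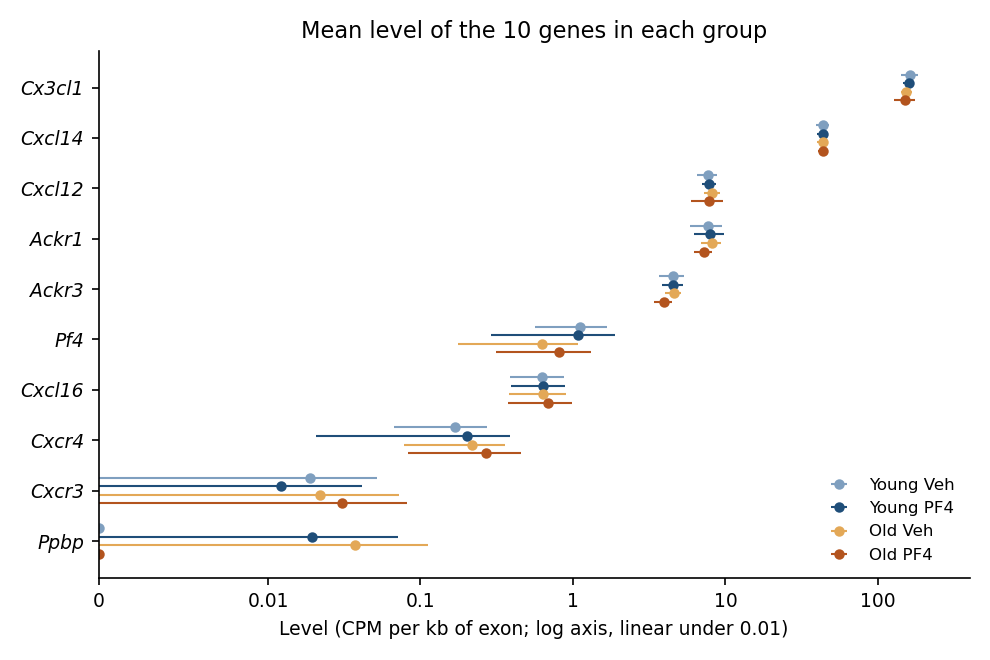
Mean level of each of the 10 genes in each group, in CPM per kb of exon on a log axis that is linear under 0.01, with bars for the SD over libraries. Cx3cl1 and Cxcl14 lie at the right, Cxcr3 and Ppbp at the left, and Ppbp is at 0 in Young Veh and Old PF4.

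Of the 10 genes, 7 passed the count filter (Pf4, Cxcl12, Ackr3, Cx3cl1, Cxcl14, Ackr1 and Cxcl16) and were tested with 17778 genes in all by edgeR's quasi-likelihood test. None of the 7 was called at an adjusted p under 0.05 in any of 6 contrasts, and DESeq2 also called 0. For PF4 against Veh in Old mice 0 of 7 were called, against 0.0337% of all genes tested, and 1 (Ackr3) had an unadjusted p under 0.05, against 6.2% of all genes. For PF4 against Veh in Young mice 0 of 7 passed either threshold, against 0% and 1.2%. The difference of the PF4 effect between ages likewise gave 0 of 7, against 0% and 3.98%. For Old against Young mice, the shares of all genes called were 2.77% in Veh mice, 0.332% in PF4 mice and 4.71% over both treatments. The shares at an unadjusted p under 0.05 were 15.2%, 8.27% and 19%, and 1 member was among them each time, Pf4 in Veh mice and over both treatments and Ackr3 in PF4 mice. The median log2 fold change of the 7 genes was -0.02 for PF4 in Old mice and -0.03 for Old against Young over both treatments, beside 0.01 and -0.00410 over all genes tested.

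**Figure D2:**
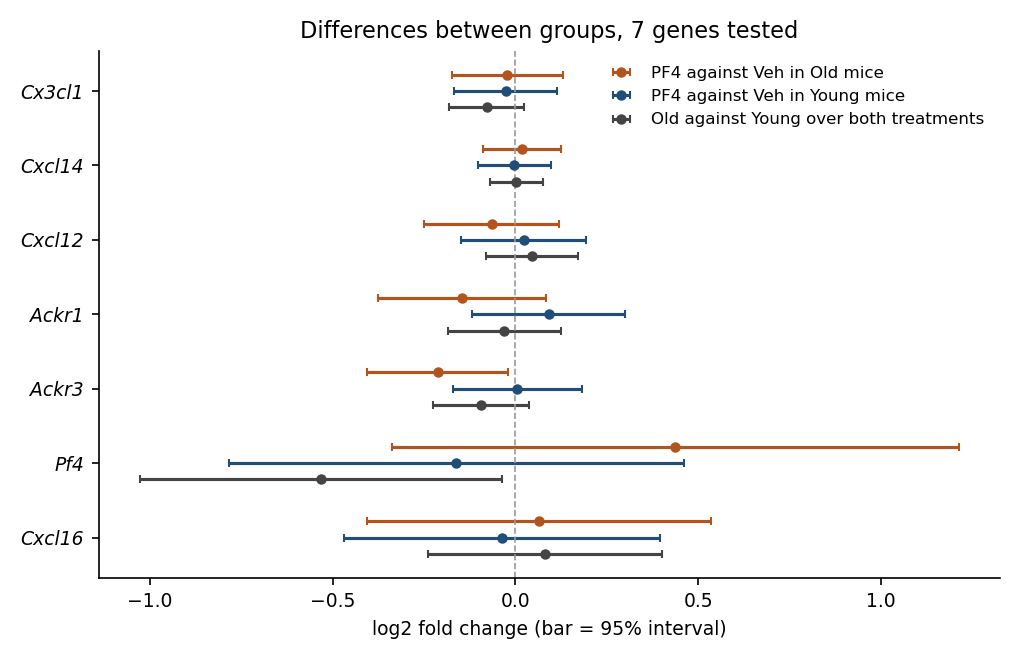
Log2 fold changes of the 7 genes tested, with 95% intervals, for PF4 against Veh in Old and in Young mice and for Old against Young over both treatments. Only the intervals of Ackr3 with PF4 in Old mice and of Pf4 with age leave out 0, and neither was called after adjustment over all genes.

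Pf4 was read in every library but with few reads, 303 in all and from 1 to 19 per library. The gene lies at chr5:90772435-90773383 (+), and its neighbour Ppbp at chr5:90768518-90770063 (+) ends 2371 bases before it. In Young Veh mice Pf4 ranged from 0.332 to 1.57 CPM with a median of 0.697, and in Young PF4 mice from 0.245 to 2.35 CPM with a median of 0.728. In Old Veh mice it ranged from 0.0790 to 1.12 CPM with a median of 0.429, and in Old PF4 mice from 0.138 to 1.25 CPM with a median of 0.491. Without the libraries of under 5000000 counts, 4 of them Old Veh, the medians were 0.214 CPM in Old Veh (n = 8) and 0.507 CPM in Old PF4 (n = 9). The groups overlapped, although 5 of the 12 Old Veh libraries lay below every Young Veh library.

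The log2 fold change of Pf4 with PF4 was 0.44 (SE 0.39, 95% interval -0.34 to 1.21) in Old mice and -0.16 (SE 0.31, -0.78 to 0.46) in Young mice. Within the libraries rich in choroid plexus transcripts the value in Old mice was -0.020 (SE 0.53). Injection of the protein thus went with no called difference in the gene's own transcript, and the intervals allow differences of more than 1 on the log2 scale in Old mice. The effects at the 2 ages differed by 0.60 (SE 0.49, edgeR adjusted p = 1). For Old against Young Veh mice the log2 fold change of Pf4 was -0.83 (SE 0.34, 95% interval -1.52 to -0.14, unadjusted p = 0.0186, adjusted p = 0.206 by edgeR's quasi-likelihood test), which was not called. In PF4 mice the corresponding value was -0.23 (SE 0.35), and over both treatments it was -0.53 (SE 0.25, edgeR adjusted p = 0.219). Pf4 only just passed the count filter, and the libraries that carried it past were mostly Young, where its level was higher. Its entry into these age tests was thus not independent of the age difference.

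The age values of Pf4 are given separately for libraries rich and poor in choroid plexus transcripts. In the rich ones the log2 fold change of Old against Young Veh mice was -0.01 (SE 0.50), and over both treatments it was 0.06 (SE 0.32). There the mean level was 0.806 ± 0.239 CPM (SD, n = 4) in Old Veh and 0.878 ± 0.464 CPM (SD, n = 8) in Young Veh. In the poor libraries, where Pf4 fell under the count filter, it was 0.272 ± 0.178 CPM (SD, n = 8) in Old Veh and 0.694 ± 0.271 CPM (SD, n = 5) in Young Veh. The difference in the poor libraries had p = 0.00622 by an exact two-sided permutation test and 0.0497 after adjustment over the 8 such comparisons, all chosen after the data were seen. In PF4 mice the poor libraries had 0.412 CPM in Old and 0.578 CPM in Young mice (exact permutation p = 0.343). The corresponding p for Veh mice in the rich libraries was 0.804 by the same exact test, and the difference between the classes was not tested. With the choroid plexus score as a covariate the fold change was -0.55 in Veh mice (edgeR adjusted p = 0.467) and -0.25 over both treatments (edgeR adjusted p = 0.667). In PF4 mice the age value turned to 0.054 with the covariate and to 0.12 within the rich libraries. In bulk tissue fewer cells that make a transcript and less transcript per cell cannot be told apart.

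**Figure D3:**
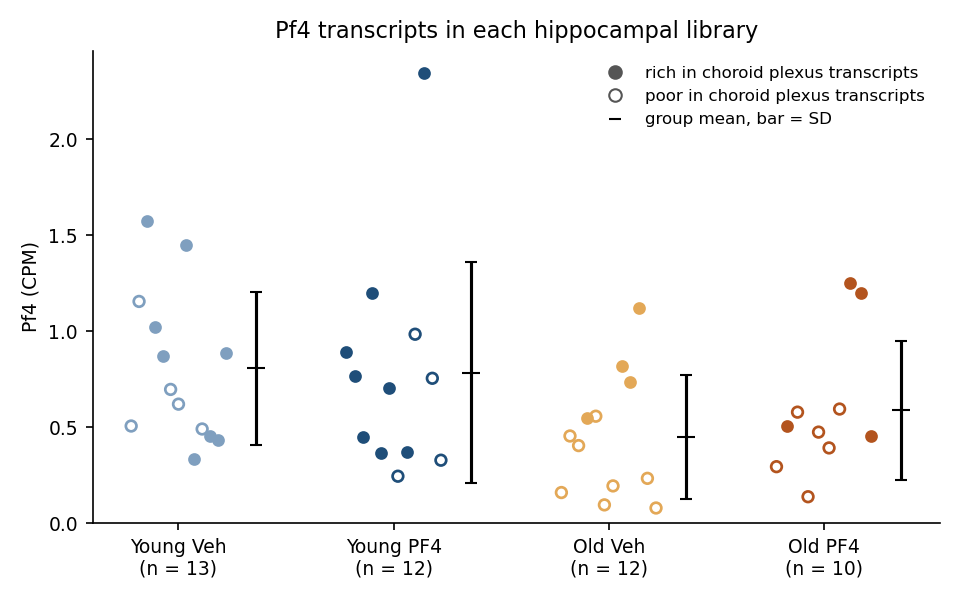
Pf4 in each library of the 4 groups, in CPM, with filled points for libraries rich and open points for libraries poor in choroid plexus transcripts, and the group mean with its SD beside them. The open points of Old Veh lie lowest, between 0.0790 and 0.557 CPM, while the filled points of all groups overlap.

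Across libraries, Pf4 moved with markers of the meninges, of border macrophages and of vessels. After group means were removed, Pf4 correlated with the mean of 7 meningeal fibroblast markers at r = 0.753 and rho = 0.748 over 47 libraries (permutation p = 1e-05 both times, which 100000 resamples cannot go below, adjusted p = 0.000327 and 0.000196 over 98 pairs of 7 genes and 14 lists). Without the 2 libraries farthest from the median r was 0.710, in the libraries of over and under 5000000 counts it was 0.768 and 0.625, and within the rich and the poor libraries it was 0.730 and 0.593. With 5 markers of border macrophages, the macrophages of meninges and perivascular spaces, r was 0.581 and rho 0.614 (permutation p = 4e-05 and 1e-05, adjusted p = 0.00098 and 0.000196). That value was 0.528 without the 2 farthest libraries, 0.609 and 0.416 by depth, and 0.513 and 0.404 within the rich and the poor libraries. The vessel lists were about as close as the border macrophages, with r of 0.570 for endothelial, 0.554 for venule and 0.551 for pericyte and smooth muscle markers (permutation adjusted p = 0.00098, 0.00112 and 0.00120). Cajal-Retzius and choroid plexus markers gave r of 0.503 and 0.461 (permutation adjusted p = 0.00203 and 0.00588), which were 0.177 and 0.0249 within the rich and 0.315 and -0.0569 within the poor libraries. Pf4 ran against neuron markers (r = -0.435, permutation adjusted p = 0.00985, and rho = -0.480, permutation adjusted p = 0.00466), although that r was 0.164 in libraries of under 5000000 counts and -0.178 and -0.209 within the rich and the poor libraries. With interneuron markers r was -0.379 (permutation adjusted p = 0.0284) and rho -0.282, which did not pass (permutation adjusted p = 0.128), and r was -0.513 within the rich and 0.0437 within the poor libraries. The 8 microglia markers gave r = -0.10 (permutation p = 0.510), with 0.453 within the rich and -0.168 within the poor libraries. Of the 98 pairs, 35 had an adjusted p of r under 0.05, and in 30 that of rho was under 0.05 too. The 3 genes whose levels followed Pf4 most closely over the 47 libraries were Fgl2 (rho 0.761), Cp (0.756) and Spp1 (0.751).

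Most platelet markers were barely read. Of 12, Gp6 had no read in any group, and Treml1, Tubb1, Clec1b and Gp1ba had at most 81 reads each over the 47 libraries. Gp1bb, with a median of 69.0 CPM, made up most of the summed platelet list, which ran from 61.5 to 93.8 CPM. The sum is therefore not an even measure of platelets. The correlation used the mean log2 CPM of the tested markers instead, with equal weight for each. Pf4 correlated negatively with the 4 platelet markers that were tested, Itga2b, Itgb3, Gp1bb and Gp5 (r = -0.380, rho = -0.376, permutation p = 0.00874 and 0.00977, adjusted p = 0.0276 and 0.0299). This r was -0.434 without the 2 farthest libraries, -0.396 and -0.12 in libraries of over and under 5000000 counts, and -0.358 and -0.284 within the rich and the poor libraries. With 2 red cell markers r was 0.07 (permutation p = 0.641).

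Of 7 meningeal fibroblast markers 2 were called lower in Old mice over both treatments and 1 in Veh mice, and of 5 border macrophage markers 0 were called, beside 4.71% and 2.77% of all genes called. Their median log2 fold changes over both treatments were -0.51 over 7 genes and -0.47 over 5 genes on the log2 scale, beside -0.00410 over all genes tested. Col1a1 and Col1a2, the chains of type I collagen, were called lower among the fibroblast markers, at -0.66 and -0.74 over both treatments (edgeR adjusted p = 0.0149 and 0.0352). Over the alternatives Col1a1 ran from -0.76 to -0.33 (edgeR adjusted p up to 0.590) and was called in 53 of 56. Col1a2 ran from -0.86 to -0.27 (edgeR adjusted p up to 0.717) and was called in 39 of 56. In PF4 mice none of either list was called, and 3 of the 5 macrophage markers had an unadjusted p under 0.05 over both treatments, beside 19% of all genes. The 10 choroid plexus markers had a median of -0.98, with none called. The part of these tissues in the Pf4 values was not tested.

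Ppbp was at the limit of detection. It had 7 reads in 47 libraries, 3 of them in 2 Young PF4 libraries and 4 in 3 Old Veh libraries. Young Veh and Old PF4 had no read, which by a one-sided limit allows a level of up to 0.0191 and 0.0296 CPM over the group, counting error only. By a permutation test of mean CPM, no contrast of Ppbp passed the threshold, and the smallest unadjusted p was 0.0974, for Old against Young in Veh mice (adjusted p = 0.723 over 12 comparisons of 3 genes and 4 contrasts).

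Cxcr3 was barely read. It had 19 reads, in 12 of 47 libraries, and pooled levels of 0.0319 CPM in Young Veh, 0.0259 in Young PF4, 0.0565 in Old Veh and 0.0493 in Old PF4, with overlapping Poisson intervals (0.0104 to 0.0744, 0.00533 to 0.0756, 0.0207 to 0.123 and 0.0160 to 0.115). Of the 6 reads in Old Veh, 4 were in replicate 10, and without it the level of that group was 0.0215 CPM, so no order of the groups can be read. Mean levels of Old PF4 and Old Veh mice differed by 0.0153 CPM (permutation p = 0.698). Markers of T cells, which carry Cxcr3, were also sparse. They had 7 to 133 reads each, most for Gzmk, Cd4 (91) and Cd3e (46), and of 8 none passed the count filter.

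Cxcl12, a chemokine of vessels and of some neurons, and its receptors showed no called change with PF4 or with age. Cxcl12 (chr6:117168535-117181367, +) ranged from 45.1 to 81.6 CPM in Young Veh (median 62.8), 56.9 to 76.6 in Young PF4 (62.3), 54.0 to 85.2 in Old Veh (66.3) and 42.8 to 93.6 in Old PF4 (61.8). The groups overlapped throughout. Its log2 fold change was -0.07 (95% interval -0.25 to 0.12) with PF4 in Old mice, 0.02 (-0.15 to 0.19) with PF4 in Young mice and 0.05 (-0.08 to 0.17) with age. Cxcl12 moved most closely with vessel markers. With 8 endothelial markers r was 0.751 and rho 0.734, and with 8 pericyte and smooth muscle markers r was 0.688 and rho 0.694 (permutation p = 1e-05 throughout, adjusted p = 0.000327 and 0.000196). These r values were 0.685 and 0.637 without the 2 farthest libraries, 0.766 and 0.662 in libraries of over 5000000 counts and 0.722 and 0.848 in those under. They were 0.781 and 0.728 within the rich and 0.765 and 0.688 within the poor libraries. Border macrophage and meningeal fibroblast markers followed with r of 0.515 and 0.509 (permutation adjusted p = 0.00188 and 0.00196), and venule markers with 0.535 (permutation adjusted p = 0.00120). Vim (rho 0.763), Mmp14 (0.757) and Ptprb (0.721) followed Cxcl12 most closely.

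**Figure D4:**
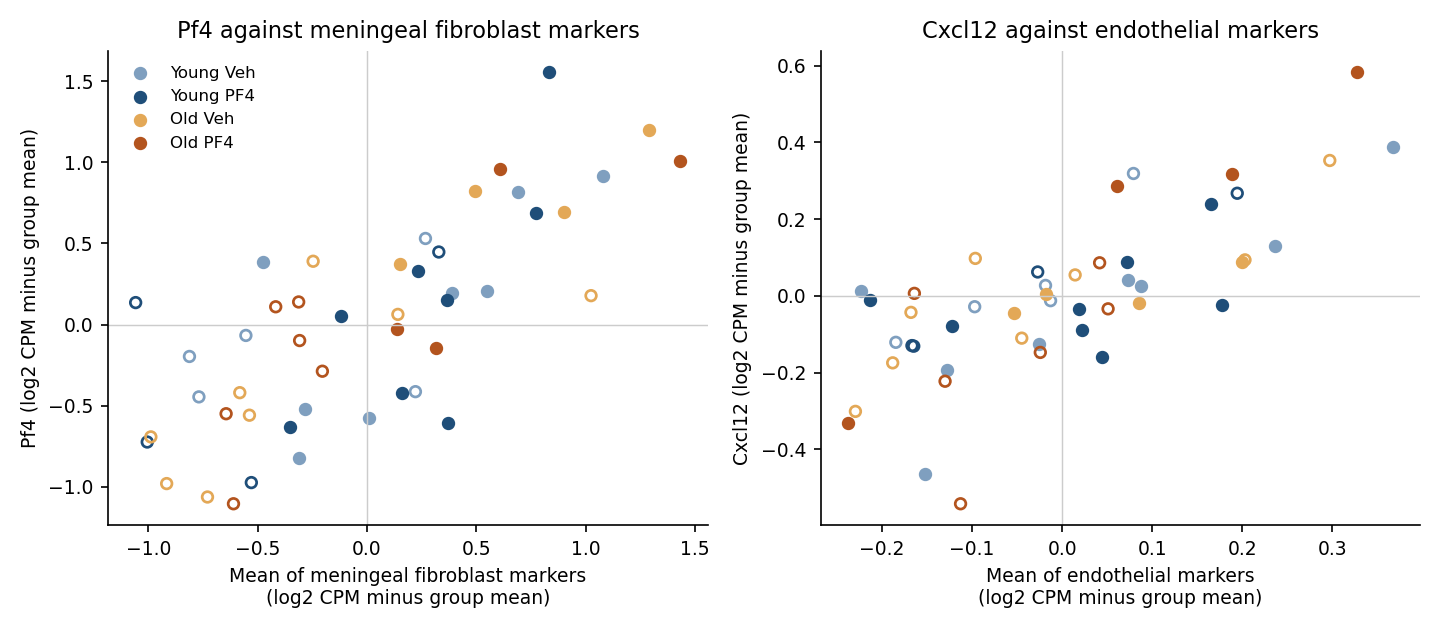
Left, Pf4 against the mean of the meningeal fibroblast markers; right, Cxcl12 against the mean of the endothelial markers; each point is 1 of 47 libraries, in log2 CPM minus the group mean, filled where rich in choroid plexus transcripts. Both relations rise, with r of 0.753 and 0.751.

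Cxcr4, the signalling receptor of CXCL12, had 191 reads in 40 of 47 libraries. Its median was 0.316 CPM in Young Veh, 0.285 in Young PF4, 0.452 in Old Veh and 0.430 in Old PF4, and libraries without a read occurred in every group. Old PF4 and Old Veh mice differed by 0.0939 CPM (permutation p = 0.480), and Old and Young Veh mice by 0.0892 CPM (permutation p = 0.323).

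Ackr3 gave the largest move with PF4 in Old mice among the 7 genes relative to its error. It ranged from 13.3 to 18.5 CPM in Old Veh (median 14.3) and from 10.9 to 16.1 in Old PF4 (13.0), and 6 of the 10 Old PF4 libraries lay below every Old Veh library. In Young Veh it ranged from 10.1 to 19.3 CPM (median 15.1) and in Young PF4 from 11.2 to 19.6 (14.8). The log2 fold change with PF4 in Old mice was -0.21 (SE 0.096, 95% interval -0.41 to -0.02, unadjusted p = 0.0314, adjusted p = 0.758 by edgeR), which was not called. It was -0.19 without the libraries of under 5000000 counts and with a term for them, and -0.18 without Old PF4 replicate 8, and in none of these was the unadjusted p under 0.05. Leaving out Old PF4 replicate 6 or 11 or Old Veh replicate 1 or 10 also took the unadjusted p above 0.05. With PF4 in Young mice it was 0.00491 (SE 0.088), and the difference of the effects between ages was -0.22 (SE 0.13, 95% interval -0.48 to 0.04, edgeR adjusted p = 1). Old against Young mice differed by 0.01 (SE 0.088) with Veh and by -0.20 (SE 0.095, unadjusted p = 0.0381, edgeR adjusted p = 0.560) with PF4. The contrasts for PF4 in Old mice and for age with PF4 share the Old PF4 libraries. Within rich and poor libraries the PF4 difference in Old mice was -0.19 and -0.25, while age over both treatments gave 0.06 and -0.23. Ackr3 correlated with the 8 pericyte and smooth muscle markers (r = 0.392, rho = 0.417, permutation p = 0.00636 and 0.00392, adjusted p = 0.0223 and 0.0148), with r of 0.391 and -0.15 in libraries of over and under 5000000 counts. This r was 0.404 without the 2 farthest libraries and 0.347 and 0.461 within the rich and the poor libraries. Venule markers gave about the same (r = 0.386, rho = 0.425, permutation adjusted p = 0.0242 and 0.0122), and astrocyte markers a negative r of -0.375 (permutation adjusted p = 0.0287) whose rho of -0.323 did not pass (permutation adjusted p = 0.0743). Gm49069 (rho 0.710), Ppp1r3c (0.650) and Tns3 (0.647) followed Ackr3 most closely.

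**Figure D5:**
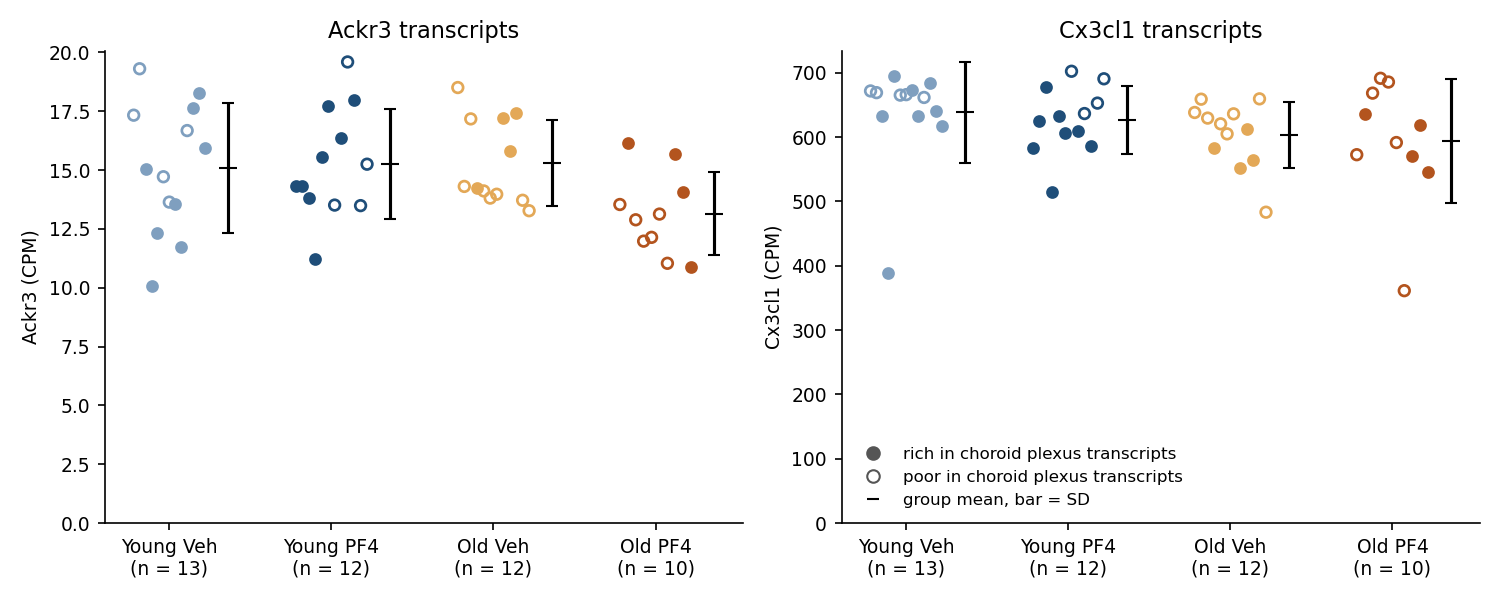
Ackr3 (left) and Cx3cl1 (right) in each library, in CPM, drawn as in the plot of Pf4 by library. Most Old PF4 points of Ackr3 sit below the Old Veh points, and 1 Old PF4 point of Cx3cl1 lies at 361 CPM.

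Cx3cl1, the neuronal ligand of the microglial receptor CX3CR1, was the most abundant. Its median was 665 CPM in Young Veh (389 to 696), 629 in Young PF4 (515 to 702), 617 in Old Veh (483 to 659) and 605 in Old PF4 (361 to 691). The log2 fold change was -0.02 (95% interval -0.17 to 0.13) with PF4 in Old mice, -0.03 (-0.17 to 0.11) in Young mice and -0.08 (-0.18 to 0.02) with age. The neuronal genes Grin1 (rho 0.874) and Eno2 (0.867) were among those that followed it most closely. The lowest Young Veh library, replicate 4, stood at 389 CPM with the next at 618, and it was also the lowest of its group for Cxcl12 (45.1 CPM) and Ackr3 (10.1 CPM). Without it the log2 fold change with PF4 in Young mice was -0.074 for Cx3cl1, -0.015 for Cxcl12 and -0.041 for Ackr3, none of them called.

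Cx3cl1 was set beside the marker lists in the same way. With 6 neuron markers r was 0.421 and rho 0.710 (permutation p = 0.00435 and 1e-05, adjusted p = 0.0185 and 0.000196), and r was 0.461 without the 2 farthest libraries, 0.437 and 0.602 by depth and 0.263 and 0.473 within the rich and the poor libraries. The largest r of Cx3cl1 in size was negative, -0.532 with 6 astrocyte markers (permutation adjusted p = 0.00188), while the rho of that pair was -0.192 (permutation adjusted p = 0.312). That r was -0.363 without the 2 farthest libraries, -0.605 and 0.361 by depth and -0.541 and -0.613 within the rich and the poor libraries. With choroid plexus markers rho was -0.454 (permutation adjusted p = 0.00649) and r -0.253 (permutation adjusted p = 0.183).

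Cxcl14, a chemokine made by interneurons among other cells, was the steadiest gene, with a coefficient of variation of 8.28% over all libraries. Medians lay between 78.4 and 80.1 CPM in the 4 groups. Its log2 fold change was 0.02 (95% interval -0.09 to 0.12) with PF4 in Old mice, -0.00285 (-0.10 to 0.10) in Young mice and 0.00236 (-0.07 to 0.08) with age, the narrowest intervals of the 7 genes. It correlated with 8 interneuron markers (r = 0.561, rho = 0.567, permutation p = 5e-05 and 6e-05, adjusted p = 0.00098 and 0.000653), with r of 0.489 without the 2 farthest libraries, 0.555 and 0.588 by depth and 0.619 and 0.395 within the rich and the poor libraries. Other lists were about as close, with r of 0.461 for astrocyte and 0.441 for the platelet markers above (permutation adjusted p = 0.00624 and 0.00936) and negative r of -0.536 for Cajal-Retzius, -0.461 for meningeal fibroblast and -0.430 for pericyte and smooth muscle markers (permutation adjusted p = 0.00137, 0.00588 and 0.0103). The meningeal fibroblast r was -0.566 and 0.145 by depth and -0.468 and 0.0385 within the rich and the poor libraries. The pericyte and smooth muscle r was -0.512 and 0.0330 by depth and -0.503 and -0.123 within the rich and the poor libraries. Fbxo2 (rho 0.754), Sncb (0.752) and Stmn4 (0.745) followed Cxcl14 most closely.

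Cxcl16, a membrane-bound chemokine, was low. Its median was 1.84 CPM in Young Veh, 1.85 in Young PF4, 1.87 in Old Veh and 1.77 in Old PF4, with 931 reads in all. The log2 fold change was 0.07 (95% interval -0.40 to 0.54) with PF4 in Old mice, -0.04 (-0.47 to 0.40) in Young mice and 0.08 (-0.24 to 0.40) with age. With pericyte and smooth muscle markers r was 0.501 and rho 0.526 (permutation p = 0.00035 and 0.00018, adjusted p = 0.00229 and 0.00126), beside r of 0.466 with venule, 0.400 with meningeal fibroblast and 0.391 with endothelial markers and -0.403 with interneuron markers. The first of these had r of 0.432 without the 2 farthest libraries, 0.561 and 0.563 by depth and 0.409 and 0.520 within the rich and the poor libraries. For meningeal fibroblast markers r was 0.609 and -0.107 by depth and 0.197 and 0.547 within the rich and the poor libraries. The interneuron rho of -0.315 did not pass (permutation adjusted p = 0.0808), and that r was -0.603 within the rich and 0.105 within the poor libraries. Trpm6 (rho 0.627), Gja4 (0.619) and Myh11 (0.613) followed Cxcl16 most closely. The gene overlaps Zmynd15 on the opposite strand over 552 bases, and the library kit kept no strand. Zmynd15 had 249 reads, and how many reads of Cxcl16 come from it was not tested.

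Ackr1, a scavenger of venule endothelium and red cells, is uncertain. The gene (chr1:173331886-173333750, -) shares 493 bases with Cadm3 on the same strand, a neuronal adhesion gene with 64902 reads, and Ackr1 counted 5153 reads, 5.02 to 13.8% of the Cadm3 reads per library (median 7.89%). Over all libraries r was 0.08 with 2 red cell markers (permutation p = 0.579) and 0.22 with 4 venule markers (permutation p = 0.137), where rho was -0.0164. Within the rich and the poor libraries r with the venule markers was 0.0532 and 0.680, with no test of either. Against Cadm3 itself r was 0.273 and rho 0.289 (permutation p = 0.0636 and 0.0490), a pair chosen after the annotation was read, with r of 0.233 without the 2 farthest libraries and 0.246 and 0.434 by depth. Its median was 9.81 CPM in Young Veh, 11.0 in Young PF4, 11.3 in Old Veh and 10.2 in Old PF4. The log2 fold change was -0.15 (95% interval -0.37 to 0.08) with PF4 in Old mice, 0.09 (-0.12 to 0.30) in Young mice and -0.03 (-0.19 to 0.12) with age. Ldhd (rho 0.573), Zbtb4 (0.533) and Gm16485 (0.532) followed it most closely. How many of its reads come from Cadm3 was not tested.

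Of the other chemokine genes, 31 ligands and 19 receptors were in the table and 6 of each were tested. None was called with PF4 at either age or for the difference between ages, by edgeR or by DESeq2. For that difference 1 ligand had an unadjusted p under 0.05 by edgeR, beside 3.98% of all genes. For age over both treatments edgeR called 1 of 6 ligands and 1 of 6 receptors, beside 4.71% of all genes. At an unadjusted p under 0.05 there were 4 ligands and 1 receptor, beside 19% of all genes. Of the 6 ligands 5 were higher in Old mice. In PF4 mice edgeR called 1 ligand, beside 0.332% of all genes. There 2 ligands and 1 receptor had an unadjusted p under 0.05, beside 8.27%. Ccl6, a macrophage chemokine, was higher in Old mice over both treatments by 0.55 on the log2 scale (SE 0.14, adjusted p = 0.0114 by edgeR) and in PF4 mice by 0.86 (SE 0.20, edgeR adjusted p = 0.0352, called in 40 of 57 alternatives), and Cx3cr1, the receptor of CX3CL1, by 0.29 (SE 0.060, edgeR adjusted p = 0.00154) over both treatments. Neither was called over both treatments within the rich libraries, where the fold changes were 0.14 (edgeR adjusted p = 0.833) for Ccl6 and 0.21 (edgeR adjusted p = 0.324) for Cx3cr1. Within the poor libraries they were 0.96 (edgeR adjusted p = 0.00864) and 0.31 (edgeR adjusted p = 0.0443).

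Of the 8 microglia markers tested, 4 were called higher in Old mice over both treatments by edgeR, 1 in PF4 mice and 0 in Veh mice, beside 4.71%, 0.332% and 2.77% of all genes. In Veh mice 4 had an unadjusted p under 0.05, beside 15.2% of all genes. P2ry12 (0.17), Siglech (0.19) and Gpr34 (0.17) were among those called over both treatments (edgeR adjusted p from 0.0263 to 0.0290), in 53, 49 and 52 of 56 alternatives. Within the rich libraries none of these 3 was called, and there P2ry12 was 0.059 (edgeR adjusted p = 0.811) and Gpr34 0.095 (edgeR adjusted p = 0.653). Ccl27a (median 13.3 CPM) and Ccl25 (12.2) were the most abundant of the other ligands, before Cxcl5 (2.73), and Cx3cr1 (60.3) and Ackr4 (5.20) of the other receptors. Of these, edgeR called only Cx3cr1, and DESeq2 also called Cxcl5 for age over both treatments. The 13 tested genes of ligand shedding and receptor regulation, of which Gnb1, Gnai2 and Adam10 were the most abundant, gave 0 calls in any contrast by edgeR or DESeq2. By edgeR 1 of the 13 had an unadjusted p under 0.05 for PF4 in Old mice, beside 6.2% of all genes. The count was also 1 for age in Veh mice, beside 15.2%, and 1 for age over both treatments, beside 19%.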

How the data were processed

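Hippocampal RNA of 47 mice was measured by unstranded Smart-Seq2 and Nextera XT sequencing. Raw, unnormalized read counts of 35486 genes were deposited by the authors. The submitters' processing notes name Trim Galore 0.3.7, STAR 2.5.3a, GRCm38 and DESeq2, while the read counter and the annotation release are not given in the sources used here. The paper's methods exclude libraries of low coverage, and 1 Old PF4 number is not analysed here. Groups came from the sample labels. Whether same-numbered libraries share a litter or a day is not stated, and each library was taken as 1 mouse.

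Counts of all genes were fitted in edgeR 4.0.16 (R 4.3.3) as 1 model of the 4 groups, with TMM scaling, the filterByExpr filter (17778 genes passed), the quasi-likelihood test and Benjamini-Hochberg adjustment over all genes tested, called at an adjusted p under 0.05. The study's methods name DESeq2, which was run as an alternative (1.42.0). Standard errors were derived from the fold change and its F statistic. Genes under the filter (Ppbp, Cxcr3, Cxcr4) were compared in CPM by two-sided permutation tests with 100000 resamples. Correlations used log2 CPM (prior count 2) with group means removed, against the mean of each marker list, with 100000 permutations (NumPy 2.4.6, SciPy 1.17.1). Positions, exon lengths and coding bases came from GENCODE vM21, GRCm38. Poisson intervals are two-sided and limits from 0 reads (3 counts over the group) one-sided. Both are at 95% and cover counting error only. The steps were tested on simulated data.

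The members and the gene lists were chosen with earlier results of these data known. Named were all 10 members, genes of the chemokine and marker lists called in any contrast, the 3 tested genes of highest mean CPM in each other chemokine list, and the 3 genes most like each tested member by Spearman's rho. Some genes that meet this rule are not reported here. The alternatives were DESeq2, DESeq2's size factors, no count filter, the groups of a contrast alone, a replicate block, a choroid plexus covariate, leaving out or a term for the 8 libraries of under 5000000 counts, and each library left out in turn. The split by choroid plexus content was added after seeing the data, at the largest gap in the mean log2 CPM of 10 markers (between 3.35 and 4.17).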

Additional observations from a re-analysis of the deposited data

Results flagged for a closer look

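Only Old PF4, with 10 libraries, was small enough for this screen, and among its 9 sets of values 1 had a library far from the others, where chance gives about 1 in 20. Cx3cl1 was 361 CPM in Old PF4 replicate 8, from 4255 reads, and the next lowest Old PF4 library had 545 CPM. The library was also the lowest of its group for Cxcl12 (42.8 CPM) and had 11.0 CPM of Ackr3. It lowered the Old PF4 mean, and without it the log2 fold change of Cx3cl1 with PF4 in Old mice was 0.040, in place of -0.02 with all libraries. In Young Veh, which was not screened, replicate 4 had 389 CPM of Cx3cl1 and the next lowest 618 CPM.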

How the results depend on the processing

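No member was called under any alternative that could be run. The counts of all genes called for PF4 in Old mice were 6 by edgeR, 24 by DESeq2, 10 with a replicate block or the choroid plexus covariate, and 0 with the groups alone, without the libraries of under 5000000 counts, with a term for them, and within the rich or the poor libraries. Without 1 library they ran from 0 to 20, the most without Old Veh replicate 11. For age in Veh mice 492 became 176 without the low-count libraries, 43 within the rich and 42 within the poor ones. For age in PF4 mice 59 became 21 with the groups alone, 90 with a replicate block or DESeq2, 2 and 9 within rich and poor. For age over both treatments 838 became 437 without the low-count libraries, 157 and 223 within rich and poor, and the interaction gave 1 call with no filter.

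Of 1720 values under alternatives, 1628 kept their direction and side of the threshold and 92 turned, in 17 of 35 results, and the cause was not tested. Within the rich libraries PF4 in Old mice gave -0.020 for Pf4, 0.14 for Cxcl12 and 0.034 for Cx3cl1, PF4 in Young mice gave 0.061 for Cxcl16, age in PF4 mice gave 0.12 for Pf4, and age over both treatments gave 0.056 for Pf4, 0.065 for Ackr3 and -0.081 for Cxcl14. Within the poor ones PF4 in Young mice gave -0.075 for Ackr3, 0.013 for Cx3cl1 and 0.038 for Cxcl14, age in Veh mice gave -0.14 for Ackr3, and age over both treatments gave -0.068 for Cxcl12. Without the low-count libraries PF4 in Young mice gave -0.013 for Ackr3 and 0.0044 for Cxcl14, and age in Veh mice -0.012 for Ackr3. With a term for them these were -0.0044 and -0.016 for Ackr3. The choroid plexus covariate gave 0.054 for Pf4 with age in PF4 mice and -0.041 for Cxcl14 with age over both treatments. The replicate block gave 0.0039 for Ackr1 with age over both treatments. Libraries with the same number at the same age correlated at a median of 0.03 (9 of 22 pairs over 0.1). Those with different numbers at the same age had a median of -0.014 (71 of 254 over 0.1). The difference was not tested, so whether the numbers pair the libraries is not known.

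Leaving out 1 library gave ranges of -0.053 to 0.015 for Ackr1 and -0.0079 to 0.014 for Cxcl14 with age over both treatments, -0.032 to 0.051 for Ackr3 with age in Veh mice, -0.051 to 0.040 for Cx3cl1, -0.0062 to 0.037 for Cxcl14 and -0.074 to 0.14 for Cxcl16 with PF4 in Old mice, and -0.041 to 0.043 for Ackr3, -0.015 to 0.062 for Cxcl12, -0.019 to 0.023 for Cxcl14 and -0.12 to 0.034 for Cxcl16 with PF4 in Young mice. Pf4 with PF4 ranged from 0.27 to 0.53 in Old and -0.20 to -0.11 in Young mice, and with age from -0.88 to -0.77 in Veh mice, -0.41 to -0.14 in PF4 mice and -0.62 to -0.49 over both treatments. Pf4 lay at the edge of the count filter and passed it in 23 of 47 such fits. The fits without Young Veh replicate 2, 3, 4 or 8 or Old Veh replicate 10 gave no value. Nor did those without Young PF4 replicate 4, 9 or 10. These libraries had the highest Pf4 of their groups, so the ranges do not show how far the values rest on them. Few reads limit Pf4, Ppbp, Cxcr3 and Cxcr4.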

Other observations

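Other cell type markers were called with age and not with PF4. Gfap, the filament protein of reactive astrocytes, was higher in Old mice by 0.38 on the log2 scale over both treatments and 0.49 in PF4 mice. These calls held in 55 of 56 and 54 of 57 alternatives. The lowest values were 0.21 and 0.20 and the highest edgeR adjusted p 0.0985 and 0.689. Aldh1l1, an astrocyte enzyme, was lower in Old Veh mice (-0.19), a call that held in 10 of 57 alternatives, 8 of them among the 47 that left out 1 library. Vcam1, an adhesion molecule of venules among other cells, was lower in Old mice by edgeR (-0.50), as was Acta2, actin of vascular smooth muscle (-0.60), each over both treatments and in 53 of 56 alternatives. With the choroid plexus score as a covariate these were -0.23 and -0.47, within the rich libraries -0.18 and -0.33, and neither was called (edgeR). The pericyte gene Rgs5 was higher in Old Veh mice (0.29), called in 54 of 57 alternatives. In PF4 mice its age value ran from -0.041 to 0.12 over the alternatives, called in 0 of 57. Over both treatments it was called in 15 of 56.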
